A study of Mus musculus with 6 samples.

Results

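The cytosolic heat shock chaperones were followed through 10 genes in human proximal tubular cells with and without overexpression of USAG-1, a secreted protein encoded by SOSTDC1. The set holds the transcription factor HSF1, the HSP70 genes HSPA1A, HSPA1B and HSPA8, their partners HSPH1, DNAJB1 and BAG3, the HSP90 genes HSP90AA1 and HSP90AB1, and the small heat shock protein gene HSPB1. They were chosen by gene symbol from the 39234 genes of the deposited table. All 10 were found there and passed the filter on low counts, among 18188 genes tested.

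Chaperones of the cytosol hold new or unfolded proteins until they fold or are degraded. HSP70 proteins bind exposed stretches of a client in an ATP-driven cycle, J-domain proteins hand clients to them, and nucleotide exchange factors release the clients again. HSP90 then acts on partly folded clients such as kinases and receptors, and small heat shock proteins keep unfolded clients from clumping. Heat and other protein-damaging stress free HSF1 from chaperones, after which it drives transcription of many of these genes, and the kidney tubule is known to induce them after ischemia.

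HK-2 is an immortalized line of human proximal tubule cells. The 6 libraries were 3 of control cells and 3 of cells with USAG-1 overexpression, all of the WT genotype in the labels and with no further treatment named. Human gene identifiers fill the table, although mouse stands as the organism in the labels. The study describes its overexpression in cells as transient transfection of plasmids, and neither time after transfection nor the plasmid of the control cells was stated for these libraries. Nothing in the labels says that replicates were separate cultures, so p-values measure the spread between libraries, which may be technical.

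Library totals ran from 41236194 to 48699471 counts, and levels are given as CPM, counts scaled to library size with edgeR's TMM normalization. SOSTDC1 had 60 to 80 counts in control libraries and 3907 to 5072 in USAG-1-overexpressing libraries. Control replicate 3 stood apart, since its counts differed from those of the other control libraries by a chi-square per degree of freedom of 42.3 and 42.7, against 6.52 between control replicates 1 and 2. Of 12 proximal tubule markers in the table, 6 stayed under 1 CPM in every library, LRP2 without a count among them, and PAX8 and GGT1 of that list were higher in USAG-1-overexpressing cells (log2 changes 0.26 and 0.55, edgeR's adjusted p = 0.0114 and 0.0208). Of 5 epithelial markers, CDH1 stayed under 1 CPM in every library, and none of the other 4, KRT8, KRT18, KRT19 and EPCAM, was called. Markers of T and NK cells were lower in USAG-1-overexpressing cells in 18 of 18 genes, with a summed level of 114 to 140.3 CPM in control libraries and 14.5 to 18.9 CPM in USAG-1-overexpressing libraries, and no marker of this list was at 0 in all libraries. The mitochondrially encoded share of counts was 5.29 ± 0.426% (SD, n = 3) in control libraries and 1.53 ± 0.0255% (SD, n = 3) in the overexpressing ones, and the same 5 heat shock genes were called with those genes left out.

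The heat shock genes moved in both directions. The 3 HSP70 genes fell to between 0.642 and 0.688 of the control level, HSP90AA1 and HSF1 rose, and the remaining 5 genes did not pass the test. Thus 5 of the 10 genes were called at an adjusted p under 0.05 by edgeR's quasi-likelihood test, beside 15.9% of all genes tested. In one direction, 3 were lower beside 6.91% of all genes, and 2 were higher beside 8.95%. HSPA1A and HSPA1B, both among the lower genes, are near-identical copies whose reads the counting could split. Their calls may thus not be separate observations. These genes are abundant, and among the 2225 genes with at least the mean level of the lowest of them (98.6 CPM), 28.8% were called. For 7 of the 10 genes no library of one group reached into the other, beside 37.6% of all genes tested and 53.9% of those 2225 genes. CPM depends on transcript length, so levels are compared between libraries and not between genes. A log2 change is the overexpressing against the control group, and its error is a standard error (SE). Group means are given with their SD, control cells first.

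**Figure D1:**
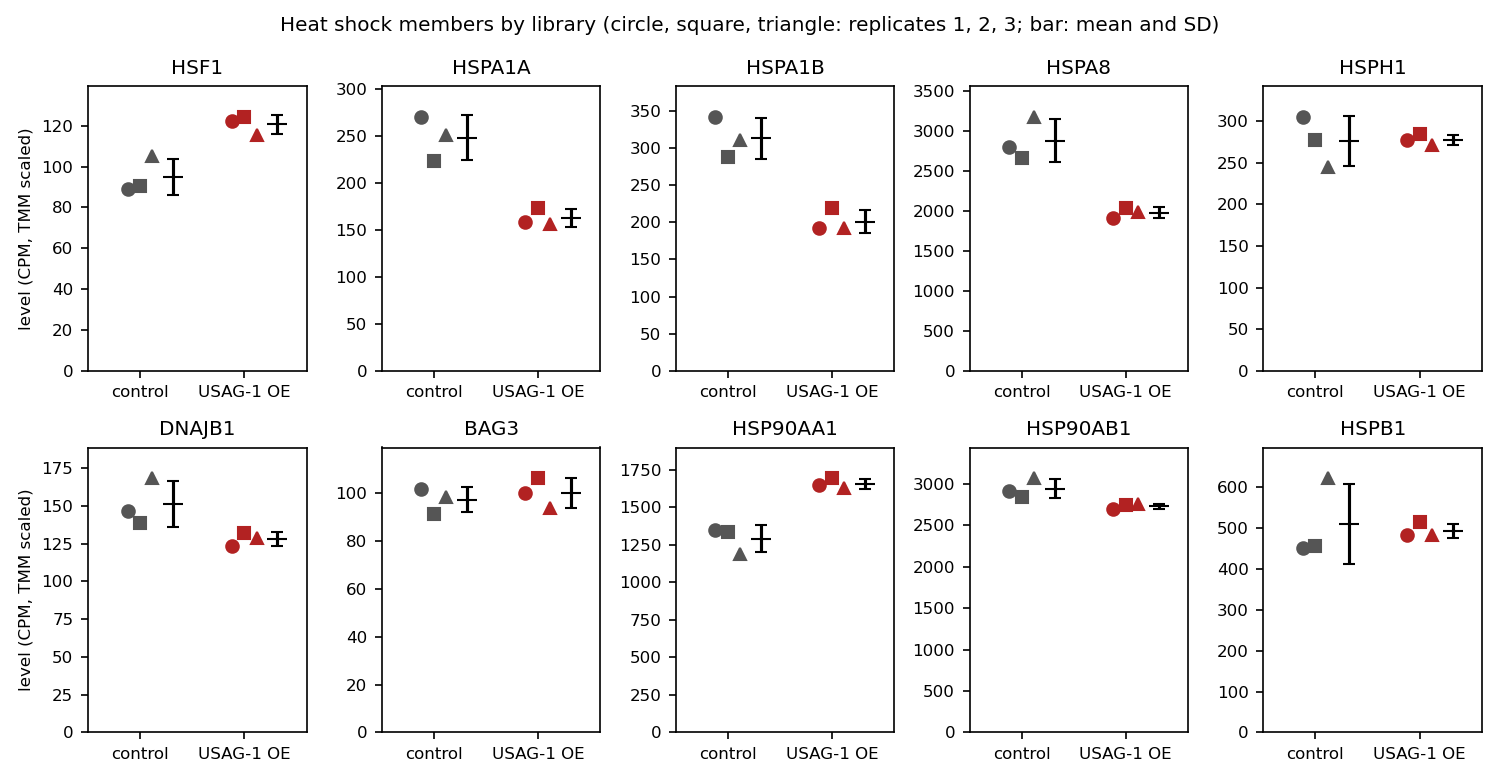
Level of each of the 10 genes in every library, in CPM on a linear axis from 0, with control libraries in grey, USAG-1-overexpressing (OE) libraries in red and the mean with SD beside each group (n = 3). HSPA1A, HSPA1B and HSPA8 sit lower and HSF1 and HSP90AA1 higher in all 3 overexpressing libraries than in any control library. DNAJB1 and HSP90AB1, which were not called, also sit lower in all 3.

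HSF1, the transcription factor that drives the heat shock response, rose in USAG-1-overexpressing cells. HSF1 (ENSG00000185122; hg38 chromosome 8, 144291591 to 144314720) had 89.2, 90.6 and 105 CPM in control replicates 1 to 3 and 122, 124 and 115 CPM in USAG-1-overexpressing replicates 1 to 3. The lowest overexpressing library thus stood above the highest control library, control replicate 3. Group means of HSF1 were 94.9 ± 8.71 and 121 ± 4.67 CPM (SD, n = 3), and the log2 change was 0.35 ± 0.08 (SE; edgeR's adjusted p = 0.0197), or 1.27-fold. This call was lost in 5 of the 6 fits that left out 1 library. Its adjusted p was 0.0651 without control replicate 1, 0.0755 without control replicate 2, and 0.0846, 0.0922 and 0.0566 without USAG-1-overexpressing replicates 1, 2 and 3, with log2 changes from 0.31 to 0.38. Without control replicate 3 it was 1.88e-04, with a log2 change of 0.43. HSF1 overlaps DGAT1 on the other strand, a gene with 14.5% as many counts.

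The HSP70 genes showed the largest changes of the set. HSPA1A and HSPA1B are neighbouring, near-identical genes for the stress-inducible HSP70, whereas HSPA8 encodes the constitutive HSC70. HSPA8 (ENSG00000109971; chromosome 11, 123057489 to 123063230) stood at 2802, 2658 and 3182 CPM in control replicates 1 to 3 and at 1915, 2042 and 1985 CPM in the overexpressing ones. All 3 overexpressing libraries lay below every control library, and control replicate 3 was the highest. Group means of HSPA8 were 2881 ± 271 and 1981 ± 63.4 CPM (SD, n = 3), with a log2 change of -0.54 ± 0.07 (SE; edgeR's adjusted p = 0.00254), to 0.688 of the control level. Without control replicate 3 the log2 change was -0.46, and the call held. The 11 pseudogenes named for HSPA8 together held 0.0976% as many counts as the gene.

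HSPA1A (ENSG00000204389; chromosome 6, 31815543 to 31817946) had 271, 223 and 250.4 CPM in the control replicates and 159, 173 and 156 CPM in the overexpressing ones. HSPA1B (ENSG00000204388; chromosome 6, 31827738 to 31830254) had 342, 287 and 311 CPM and then 192, 219 and 192 CPM. In both genes control replicate 2 was the lowest of its group and overexpressing replicate 2 the highest of its own, and the groups stayed apart. The log2 change was -0.61 ± 0.08 for HSPA1A (SE; edgeR's adjusted p = 0.00257) and -0.64 ± 0.08 for HSPA1B (SE; edgeR's adjusted p = 0.00242), to 0.655 and 0.642 of the control level.

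Because the 2 copies are so alike, the authors' counting could split their reads, and neither value is certain by itself. HSPA1B held 55.4 to 56.3% of the counts of the pair over the control libraries and 54.8 to 55.9% over the overexpressing ones, and these ranges overlapped. With both summed to 1 gene, the level was 613, 511 and 561 CPM in the control replicates and 350.4, 392 and 348 CPM in the overexpressing ones. The log2 change of this sum was -0.63 ± 0.08 (SE; edgeR's adjusted p = 0.00236).

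Inducible and constitutive HSP70 both fell, with log2 changes of -0.63 for the HSPA1A and HSPA1B sum and -0.54 for HSPA8. The log2 ratio of the HSPA1A and HSPA1B sum to HSPA8 had group means of -2.36 ± 0.157 and -2.45 ± 0.0662 (SD, n = 3). Its difference of -0.09 was smaller than the spread among control libraries (p = 0.5, 2-sided exact permutation test, in which 3 libraries against 3 cannot go below 0.1). That test could not show that both forms changed alike. With 1 library left out, the difference ranged from -0.16 to -0.00531. Together the 3 HSP70 genes took 3442 ± 288 CPM in control and 2344 ± 84.9 CPM in overexpressing libraries (SD, n = 3). The markers of T and NK cells fell in the same libraries, from a mean summed level of 125 CPM to 16.5 CPM, and their part in the HSP70 fall was not tested. In such bulk libraries, fewer cells of a type and less RNA per cell cannot be told apart. Where the T and NK cell transcripts came from in this cell line was not tested.

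The partners of HSP70 in this set did not pass the test. DNAJB1, a J-domain protein that is itself a classic heat shock gene, came closest. DNAJB1 (ENSG00000132002; chromosome 19, 14514769 to 14560262) had 147, 138 and 168 CPM in the control replicates and 123, 132 and 129 CPM in the overexpressing ones. The groups did not overlap, with the highest overexpressing value next to the lowest control value. Its log2 change was -0.24 (95% confidence interval from -0.42 to -0.06, adjusted p = 0.0818). The adjusted p was 0.0379 by DESeq2 and 0.0439 without control replicate 3, where the log2 change was -0.15. DNAJB1 overlaps TECR on the other strand, a gene with 67.0% as many counts, and whether strand was used in counting was not stated.

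HSPH1 encodes HSP110, a nucleotide exchange factor for HSP70. HSPH1 (ENSG00000120694; chromosome 13, 31134973 to 31162039) had 305, 277 and 245 CPM in the control replicates and 277, 284 and 271 CPM in the overexpressing ones. The overexpressing libraries lay inside the control range, whose ends were control replicates 1 and 3. The log2 change of 0.01 had a 95% confidence interval from -0.18 to 0.19 (adjusted p = 0.959).

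BAG3 links HSP70 and small heat shock proteins to selective autophagy and is also driven by HSF1. BAG3 (ENSG00000151929; chromosome 10, 119651380 to 119677819) had 102, 91.4 and 98.6 CPM in the control replicates and 99.9, 106 and 93.9 CPM in the overexpressing ones, and these ranges overlapped. Its log2 change was 0.04 (95% confidence interval from -0.12 to 0.20, adjusted p = 0.737). The intervals of HSPH1 and BAG3 leave out falls as large as those estimated for the 3 HSP70 genes.

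**Figure D2:**
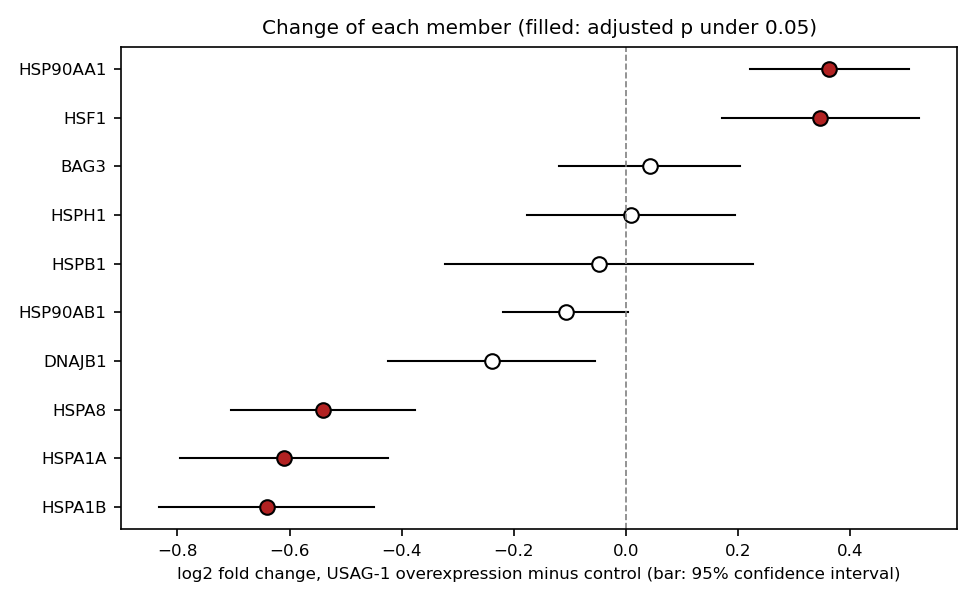
Log2 change of each gene, USAG-1-overexpressing minus control cells, with its 95% confidence interval from edgeR's fit and genes ordered by value. The filled points are the 5 genes at an adjusted p under 0.05, with HSPA1B (-0.64), HSPA1A (-0.61) and HSPA8 (-0.54) at one end and HSF1 (0.35) and HSP90AA1 (0.36) at the other.

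Of the HSP90 pair, HSP90AA1 rose and HSP90AB1 did not pass the test. HSP90AA1 encodes the stress-inducible form and HSP90AB1 the constitutive form of cytosolic HSP90. HSP90AA1 (ENSG00000080824; chromosome 14, 102080742 to 102139699) had 1350.5, 1331 and 1184 CPM in control replicates 1 to 3 and 1649, 1693 and 1628 CPM in the overexpressing ones. Every overexpressing library was above every control library, and control replicate 3 was the lowest. Group means of HSP90AA1 were 1289 ± 90.8 and 1657 ± 33.3 CPM (SD, n = 3), with a log2 change of 0.36 ± 0.06 (SE; edgeR's adjusted p = 0.00694), or 1.29-fold. Without control replicate 3 the log2 change was 0.31 and the call held.

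HSP90AB1 (ENSG00000096384; chromosome 6, 44246166 to 44253888) had 2917, 2836 and 3069 CPM in the control replicates and 2695, 2740.0 and 2753 CPM in the overexpressing ones. Its overexpressing libraries were all lower, by a small margin. The log2 change was -0.11 (95% confidence interval from -0.22 to 0.00389, adjusted p = 0.178), and the gene did not pass the test.

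Among both HSP90 genes, the share of counts from HSP90AA1 did not overlap between the groups. It made up 31.6, 31.9 and 27.8% of the counts of the pair in control replicates 1 to 3 and 38.0, 38.2 and 37.2% in the overexpressing ones. The log2 ratio of HSP90AA1 to HSP90AB1 had group means of -1.19 ± 0.158 and -0.72 ± 0.0333 (SD, n = 3), without overlap between groups, and the 2-sided exact permutation test gave p = 0.1, the smallest that 3 against 3 allows. The difference of 0.47 ranged from 0.38, without control replicate 3, to 0.52 when 1 library was left out. The summed level of both genes was 4229 ± 54.1 CPM in control and 4386 ± 44.8 CPM in overexpressing libraries (SD, n = 3). Pseudogenes named for the pair held 0.899% of the count of HSP90AA1 and 0.389% of that of HSP90AB1.

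HSPB1 encodes HSP27, a small heat shock protein that also binds the actin cytoskeleton. HSPB1 (ENSG00000106211; chromosome 7, 76302673 to 76304292) had 452, 455 and 622 CPM in control replicates 1 to 3 and 482, 514 and 484 CPM in the overexpressing ones. Control replicate 3 alone stood above the overexpressing libraries, and control replicates 1 and 2 stood below them. The log2 change was -0.05 (95% confidence interval from -0.32 to 0.23, adjusted p = 0.828). Without control replicate 3 it was 0.13 (adjusted p = 0.0272), so the direction and the call for HSPB1 both turned on that library.

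Control replicate 3 differed from the other control libraries in the levels of several of these genes. It was the highest control library for HSF1, HSPA8, DNAJB1, HSP90AB1 and HSPB1, and the lowest for HSPH1 and HSP90AA1. Without it, 7 of the 10 genes were called, with HSF1, HSP90AA1 and HSPB1 higher and HSPA1A, HSPA1B, HSPA8 and DNAJB1 lower, while the share of all genes called rose from 15.9% to 27.0%. With any other library left out, 4 were called, since HSF1 was lost each time. The share of all genes called was then 10.2% and 8.74% without control replicates 1 and 2, and 6.92%, 5.98% and 7.09% without USAG-1-overexpressing replicates 1, 2 and 3. HSPA1A, HSPA1B, HSPA8 and HSP90AA1 passed the test in each of the 15 alternatives run.

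**Figure D3:**
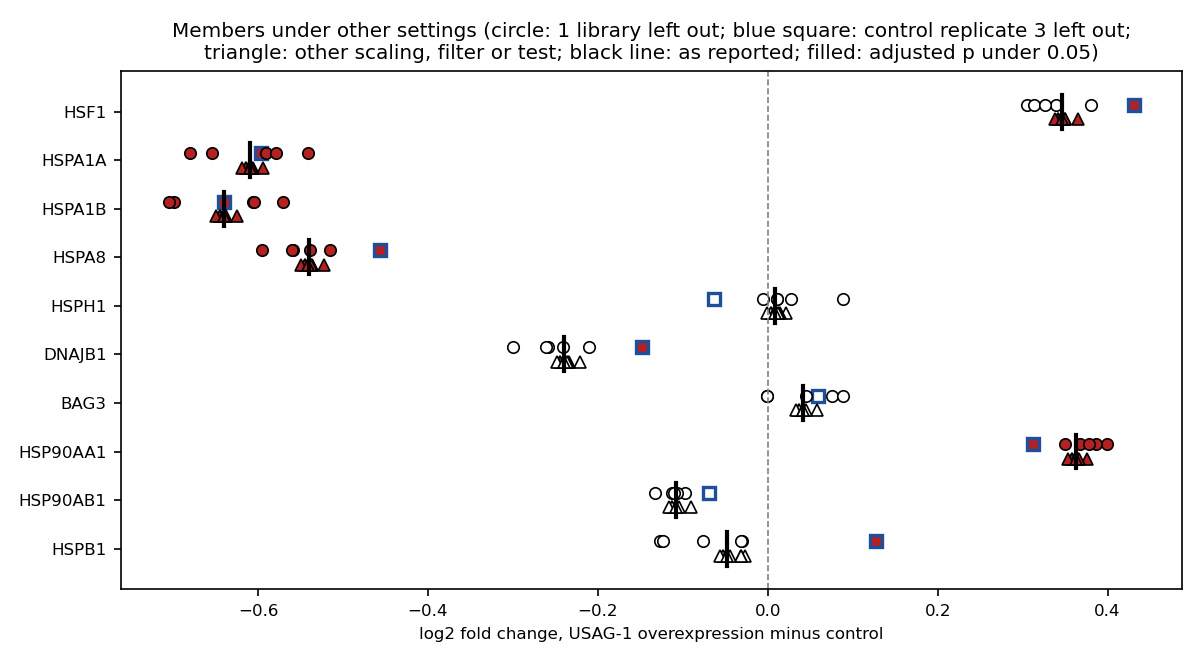
Log2 change of each gene under the alternatives, with circles for 1 library left out, a blue square for control replicate 3 left out, triangles for another scaling, filter or test, and a black line for the reported value. Filled symbols have an adjusted p under 0.05, and the square for HSPB1 lies at 0.13, on the other side of 0 from the reported -0.05.

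Summed, the 10 genes took 0.874 ± 0.0208% of the counts in control and 0.789 ± 0.0103% in overexpressing libraries (SD, n = 3). This sum is weighted to the most abundant genes and does not stand for each of them. HSPA8 alone went from a mean of 2881 to 1981 CPM, while HSP90AA1 rose from 1289 to 1657 CPM. Of the 10 genes, 4 had a log2 change above 0 and 6 below. The median log2 change over the 10 was -0.08, beside -0.02 over all genes tested.

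The wider cytosolic chaperone system was read from a list of 42 further chaperones and co-chaperones, of which 39 were tested. Of these, 5 were higher and 3 were lower, or 20.5% called beside 15.9% of all genes. Among the 2225 genes with at least 98.6 CPM, a level that part of this list passed, 28.8% were called. The log2 changes of the list had a median of 0.03, with 20 genes above and 19 below 0. The lower genes included DNAJA1, a J-domain partner of HSP70, with group means of 319 ± 13.0 and 259.6 ± 7.98 CPM (SD, n = 3) and a log2 change of -0.30 (edgeR's adjusted p = 0.0108), and BAG1, a nucleotide exchange factor of HSP70 (-0.48, adjusted p = 0.0164). HSPA6, a strictly inducible HSP70 gene with only 41 to 105 counts per library, was also lower (-0.89, adjusted p = 0.041), but this call was lost in 8 of 14 alternatives. DNAJA1 lost its call without USAG-1-overexpressing replicate 1 (-0.27) or 3 (-0.30), and BAG1 without any one of the overexpressing replicates (-0.42 to -0.51).

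The 5 higher genes of that list were BAG6, HSPA4L, ST13, BAG4 and HSPB8. BAG6, which guards tail-anchored and mislocalized proteins, had group means of 327 ± 21.9 and 429 ± 3.78 CPM (SD, n = 3), a log2 change of 0.39 (edgeR's adjusted p = 0.00479), and kept its call with each library left out. HSPA4L, an HSP110 relative of HSPH1, had a log2 change of 0.47 (adjusted p = 0.00917) and lost the call without USAG-1-overexpressing replicate 2 (0.45). ST13, the HSP70 cofactor HIP, had one of 0.26 (adjusted p = 0.0106) and lost it without USAG-1-overexpressing replicate 1 (0.26) or 2 (0.26). HSPB8, the partner of BAG3, had one of 0.28 (adjusted p = 0.0274) and BAG4 one of 0.36 (adjusted p = 0.0246). With a single library left out, HSPB8 kept its call in 1 and BAG4 in 2 of 6 fits. Without control replicate 3 the list had 16 genes called, with 10 higher and 6 lower, beside 27.0% of all genes in that fit. It had 2 to 3 without any one of the overexpressing libraries, beside 5.98 to 7.09% of all genes, and 5 without control replicate 2, beside 8.74%. The T and NK cell markers moved with the lower genes here too, and their part was not tested.

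**Figure D4:**
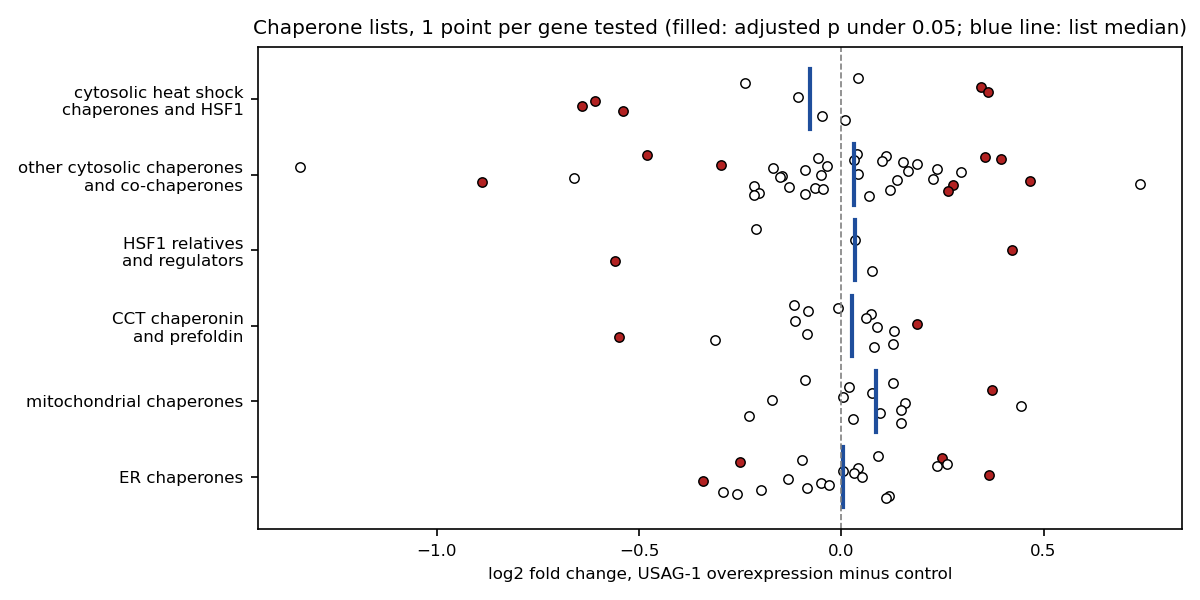
Log2 change of every gene tested in 6 chaperone lists, 1 point per gene, filled at an adjusted p under 0.05, with the list median as a blue line. The medians lie between -0.08 and 0.09 and the 10 heat shock genes range from -0.64 to 0.36.

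Among HSF1's relatives and regulators, 5 of 6 genes were tested, with 1 higher and 1 lower, beside 8.95% and 6.91% of all genes. HSF2, a second heat shock factor, had group means of 20.7 ± 1.18 and 27.8 ± 1.34 CPM (SD, n = 3) and rose with a log2 change of 0.42 (edgeR's adjusted p = 0.0103), and this call was lost without USAG-1-overexpressing replicate 1 (0.41) or 2 (0.40). HSF2BP, a binding partner of HSF2, was lower (-0.56, adjusted p = 0.0386), a call lost in 7 of 14 alternatives. HSBP1, which binds heat shock factors and dampens them, had a log2 change of -0.21 (adjusted p = 0.0526) and did not pass the test, but passed it in 5 of 14 alternatives, among them DESeq2 (adjusted p = 0.0149) and the fit without control replicate 3 (adjusted p = 0.0181).

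Chaperones with other tasks were set beside these genes, and their counts of calls stand beside 15.9% of all genes, or 27.0% without control replicate 3. Part of the CCT and prefoldin list and part of the mitochondrial list passed 98.6 CPM, a level at which 28.8% of 2225 genes were called. Of 14 subunits of the CCT chaperonin, which folds actin and tubulin, and of its helper prefoldin, CCT8 was higher (0.19, adjusted p = 0.0375) and PFDN5 lower (-0.55, adjusted p = 0.0275) on the log2 scale, with PFDN6 at -0.31 (adjusted p = 0.0541, and 0.0232 by DESeq2), or 14.3% called. CCT8 kept its call only with control replicate 3 left out, among the fits that left out 1 library, and PFDN5 lost its own without control replicate 2 or USAG-1-overexpressing replicate 1 or 3. The fit without control replicate 3 called 7 of the 14. Of 14 mitochondrial chaperones and proteases tested, CLPX, the unfoldase of a matrix protease, was higher (0.37, adjusted p = 0.0134), a call lost without USAG-1-overexpressing replicate 1 (0.36) or 2 (0.35), and 7.14% were called. HSPE1 (-0.23) and HSPA9, the mitochondrial HSP70 (0.15), had adjusted p-values of 0.105 each, and 7 of the 14 were called without control replicate 3.

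HSPA5, the HSP70 of the endoplasmic reticulum, did not pass the test. Group means of HSPA5 were 1169 ± 40.5 and 1210.4 ± 34.2 CPM (SD, n = 3), with overlapping groups and a log2 change of 0.05 (95% confidence interval from -0.07 to 0.17, adjusted p = 0.564). Of 21 chaperones of this compartment, 2 were higher and 2 lower, or 19.0% called beside 15.9% of all genes. Among the 2225 genes with at least 98.6 CPM, a level that part of this list passed, 28.8% were called. HSPA13, another HSP70 relative, was higher (0.37, adjusted p = 0.00743), while MANF (-0.34, adjusted p = 0.00986), a stress-induced cofactor of HSPA5, and DNAJB11 (-0.25, adjusted p = 0.0185), its J-domain partner, were lower. HSPA13 kept its call with each library left out, MANF lost it without USAG-1-overexpressing replicate 1 (-0.33) or 2 (-0.33), and DNAJB11 kept it in 2 of 6 such fits. Leaving out control replicate 3 gave 9 calls among the 21, beside 27.0% of all genes.

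Among 11279 other genes with at least 5 CPM, the level of E2F4 over the 6 libraries was most like the mean of the 9 chaperone genes, with Pearson's r = 0.997 on log2 CPM. MKS1, ASB2, TMEM63B and THOC6 followed, with r from 0.989 to 0.992. The 9 genes moved in both directions, so their mean does not stand for each of them. E2F4 (log2 change -0.15, edgeR's adjusted p = 0.109) and MKS1 (-0.21, adjusted p = 0.250) were not called. ASB2, TMEM63B and THOC6 were called lower. For HSF1 the most alike included ZCCHC24, EIF3CL, SLC17A5 and ESYT2, with r from 0.997 to 0.999. The 6 points are libraries in 2 groups that share 1 scaling, and the correlations are given as a description.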

How the data were processed

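RNA of 3 control and 3 USAG-1-overexpressing HK-2 libraries was sequenced from strand-specific poly(A)-selected paired-end libraries, per the labels. The authors deposited whole-number counts per gene, not normalized, for each library in 1 table with gene positions, and these counts were the values used. The submitters' processing notes name cutadapt 1.9, FastQC and hg38. The aligner, the counting tool and the annotation are not given in the sources used here. Groups and replicate numbers came from the sample titles.

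Genes were kept by filterByExpr and scaled by TMM. The quasi-likelihood test of edgeR 4.0.16 (glmQLFit, glmQLFTest; R 4.3.3) compared the groups with no block for replicate number. P-values were adjusted by Benjamini-Hochberg over all 18188 genes tested, which held 99.9% of the counts, and an adjusted p under 0.05 at any fold change was a call. DESeq2 1.42.0, which the study names, and limma 3.58.1 were alternatives, along with other scalings and filters, a replicate block, and each library left out. Summing pseudogenes into the heat shock genes was added after seeing the data. Standard errors were taken as the size of the log2 change over the root of the F statistic. Ratios used log2 CPM with a prior count of 2. Code was tested on simulated data.

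The heat shock genes and the lists were chosen with earlier results of these data known. Beside the 10 genes, the text names the 3 genes with the smallest p of each list, further called genes of the lists chosen after their values were seen, HSPA5, SOSTDC1 and the 5 genes most like each pattern, of which 1 is not reported here. Markers of B cells (0 of 6 called), myeloid cells (1 of 8 lower), erythroid cells and platelets (0 of 5 tested) and fibroblasts (1 of 3 tested higher) were also read. Summed myeloid markers ran from 57.4 to 117 CPM in control and from 45.6 to 85.5 CPM in overexpressing libraries. Those of erythroid cells and platelets ran from 8.19 to 110 CPM and from 8.43 to 77.3 CPM. No pair of libraries of a group were copies of each other, with a chi-square per degree of freedom of at least 6.52.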

Additional observations from a re-analysis of the deposited data

How the results depend on the processing

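Among the 10 heat shock genes, 5 were called in all alternatives but DESeq2's Wald test (6) and the fits with 1 library left out (4 to 7, highest without control replicate 3). The summed HSPA1A and HSPA1B gene kept its call and direction in 14 of 14 alternatives, with log2 fold changes from -0.69 to -0.56. Of the genes that were not called, HSPH1 (log2 change -0.063 to 0.089 with 1 library left out) changed sign with at least 10 counts required in every library (-0.00102), without control replicate 3 and without USAG-1-overexpressing replicate 2 (-0.00546). BAG3 (-0.00114 to 0.089) changed sign without control replicate 2 (-0.000696) and without USAG-1-overexpressing replicate 2 (-0.00114), and HSPB1 (-0.126 to 0.127) without control replicate 3. The cause of these changes was not tested.

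With 1 library left out, the calls over all genes ranged from 1137 (without USAG-1-overexpressing replicate 2) to 5091 (without control replicate 3), and the lists had 0 to 3 calls for HSF1's relatives, 2 to 16 for other cytosolic chaperones, 0 to 7 for CCT and prefoldin, 0 to 7 for mitochondrial and 1 to 9 for endoplasmic reticulum chaperones. Where edgeR left a list at 0, between 1 and 4 of its genes had an unadjusted p under 0.05. Without the filter on low counts, HSF1's relatives had 1 call and CCT and prefoldin 0 (4 at an unadjusted p under 0.05, and 3 calls by DESeq2 and 2 by limma-voom with the filter). Library sizes alone gave 2 calls among mitochondrial chaperones, beside 2920 calls over all 18188 genes tested. DESeq2 gave 7 in the endoplasmic reticulum, beside 3761 calls over all genes. The reported fit called 2884 of 18188 genes, limma-voom 2895, and the fit without the filter 2034 of 32507. No scaling moved the median log2 fold change of all genes by over 0.1.

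No pairing of libraries by replicate number was seen. The deviations of same-numbered libraries from their group means correlated at 0.07, -0.05 and 0.04. The highest correlation was between control replicate 3 and USAG-1-overexpressing replicate 2 (0.107). These correlations cannot exclude a shared batch, since deviations from a mean of 3 libraries depend on each other. With a replicate block, 2381 genes were called in place of 2884, the 5 heat shock genes were called, and HSF1's relatives had 1 call in place of 2. Other cytosolic chaperones had 6 calls in place of 8 and endoplasmic reticulum chaperones 3 in place of 4. Among the genes named, HSF2BP (adjusted p = 0.0587), HSPA6 (0.0745), BAG4 (0.0530) and CCT8 (0.0834) lost their calls by edgeR with the block, and PFDN6 (0.0414) gained one.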
